A study of Homo sapiens with 6 samples.

Results

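TALL-1, an established cell line of T-cell acute lymphoblastic leukaemia (a malignancy of developing T cells known as T-ALL), was set against the T-ALL lines MOLT-4, KOPT-K1, HBP-ALL, DND-41 and CCRF-CEM by the presence or absence of peaks of open chromatin. Intervals of all 6 peak lists on chromosomes 1 to 22 and X were merged wherever they overlapped, which gave 40110 regions. A region was counted as TALL-1-only when it held a TALL-1 interval and none of the others, and as TALL-1-lacked when all 5 other lines had an interval there and TALL-1 had none. There were 1490 TALL-1-only regions (3.71% of all merged regions and 9.12% of those with a TALL-1 interval). There were 630 TALL-1-lacked regions (1.57% of all merged regions and 6.51% of the 9683 regions with intervals of all 5 other lines). Together they made up 2120 of the 40110 regions.

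The 6 lines were grown in the same medium and profiled by ATAC-seq without any treatment, and each gave 1 library. All 6 lines are tumour lines, and no normal T cell or other reference cell was part of the comparison. The labels give the line's name and no genotype, and they do not say which passage or clone was used. The labelled cell type could not be checked against marker genes, because no annotation of hg19, the build of the files, was used here; for the same reason positions are given without genes.

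In ATAC-seq the Tn5 transposase cuts and tags accessible DNA, so tags pile up where nucleosomes are absent or loosely held. Promoters of genes that all cells use tend to be open in most cell types, while distal enhancers are open in a more restricted way and carry much of the difference between related cells. Cancer lines also gain and lose stretches of chromosome, and in ATAC-seq the number of tags rises and falls with the number of DNA copies. A peak call therefore depends on accessibility, on copy number and on sequencing depth, and those contributions cannot be told apart in a peak list.

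Membership was decided by these same peak lists, so every value at the members is a description. No test was made beyond a check for gaps between TALL-1 and the other lines. With 1 library a line there is no replicate error, and a difference between lines cannot be told apart from one between preparations. The TALL-1 list was the shortest, with 16507 intervals against 17898 to 22367 in the others. Its relative tag depth, estimated from the lowest local background with CCRF-CEM set to 1, was the highest at 2.096, against 1.35 to 1.93 in the lines other than CCRF-CEM. This order of depths assumes that the narrowest interval in a list equals the caller's extension length; the true depths are unknown. CCRF-CEM stood apart from the rest with narrower peaks (median 436 bp, against 491 to 531 bp in the other 5). It also had the most intervals, 22367, but HBP-ALL was close with 22055.

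TALL-1-only regions lay closer to the regions shared by all 6 lines than the line-only regions of any other line did. Their median distance to the nearest shared region was 75424 bp (order-statistic 95% interval 68525 to 82476 bp, which covers the spread between regions only). The corresponding medians were 96637 bp in KOPT-K1, 107842 bp in DND-41, 109968 bp in MOLT-4, 116222 bp in HBP-ALL and 207915 bp in CCRF-CEM. Within 10 kb of a shared region lay 11.2% of the TALL-1-only regions, 167 in number, against 4.39% to 9.94% of the line-only regions elsewhere. Beyond 500 kb lay 9.60%, against 14.4% to 27.8% elsewhere. For scale, the shared regions themselves had a median distance of 51372 bp to their nearest shared neighbour, and 10.7% had one within 10 kb. Of all regions with a TALL-1 interval 11.7% lay within 10 kb of another shared region, at a median distance of 54046.5 bp. The 11.2% of TALL-1-only regions was thus close to the share over all TALL-1 regions.

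TALL-1-lacked regions stood at the opposite end among the 6 lines. Their median distance to a shared region was 92151 bp (79377 to 112080 bp), the longest of the 6 lines. The regions lacked by one other line alone had medians of 43199 bp in CCRF-CEM, 55211 bp in KOPT-K1, 61713 bp in HBP-ALL, 62728 bp in DND-41 and 68653 bp in MOLT-4. Only 6.83% of the TALL-1-lacked regions were within 10 kb of a shared region, against 10.1% to 15.3% for the other lines. By median distance, the regions of TALL-1 alone thus ranked nearest to the common open chromatin and its missing regions farthest from it. This order held in each setting tried with all 6 lists and with CCRF-CEM left out. It is only a rank among 6 lines with 1 library each. A check of 61 items for a gap setting TALL-1 apart from the other lines flagged 0 of them.

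**Figure D1:**
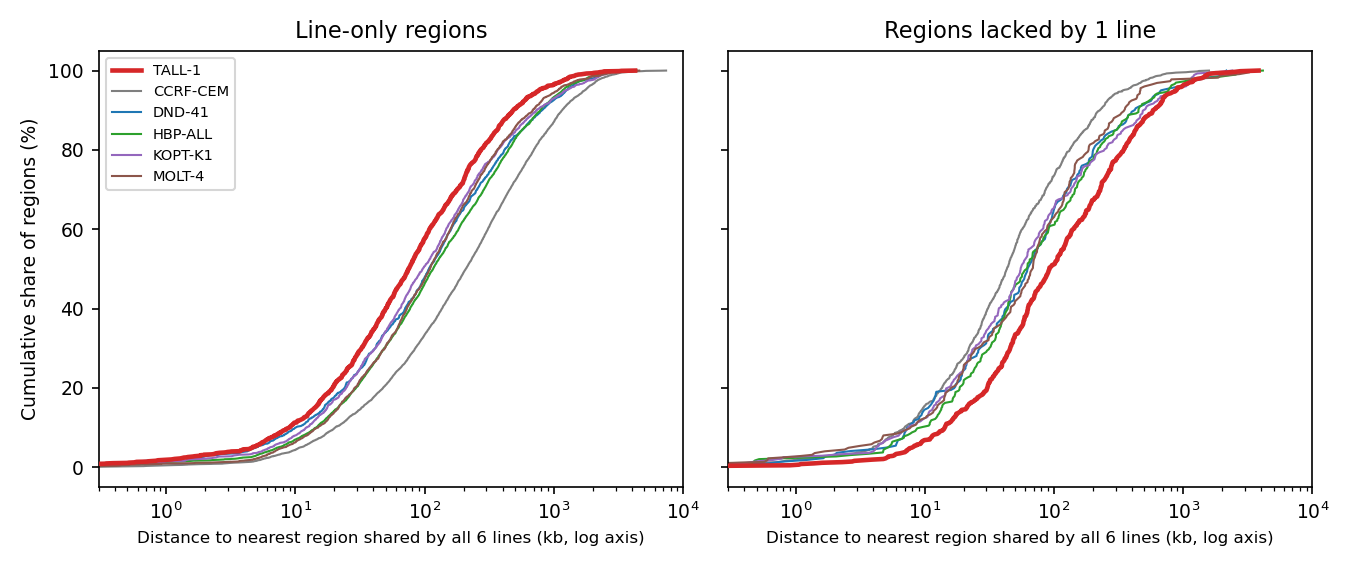
Cumulative share of line-only regions (left) and of regions lacked by 1 line alone (right) against the distance to the nearest region shared by all 6 lines, in kb on a log axis, 1 curve for each line. The TALL-1 curve lies to the left of the others for line-only regions (median 75424 bp) and mostly to the right for lacked regions (median 92151 bp).

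The number of shared regions around a member was also counted. All merged regions were divided into 3 classes by how many shared regions lay up to 500 kb away on either side: at most 2 (sparse), more than 2 and up to 5 (middle), and more than 5 (dense). TALL-1 lacked 12.1% of its candidate regions in the sparse class (246 of 2031), 6.64% in the middle class and 3.92% in the dense class (179 of 4563). In CCRF-CEM the order ran the other way, at 7.89%, 9.19% and 10.7%. The remaining lines lacked 3.51% to 4.49% in the sparse class and 1.46% to 2.92% in the dense class, so a lower share in dense stretches was found in those lines too, with the widest difference in percentage points in TALL-1. TALL-1-only regions made up 12.6% of TALL-1 regions in the sparse class and 7.31% in the dense class. In the dense class TALL-1 stood in the middle of the 6 lines, with DND-41 (4.22%) and KOPT-K1 (5.37%) below it and MOLT-4 (7.41%), HBP-ALL (14.2%) and CCRF-CEM (14.8%) above it.

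TALL-1-only regions were narrow and weak. Their median width was 282 bp (quartiles 234 and 353 bp), the narrowest among the 6 lines, where the others ranged from 292 to 321 bp. The smallest interval in the TALL-1 list is 199 bp wide, so many of these peaks were near the minimum. The pileup, a count of tags covering a peak's summit, had a median of 14, against 19 at regions that TALL-1 shared with 1 to 4 other lines and 44 at regions shared by all 6. Their median −log10 p of 8.0 put them at the 14.3rd percentile of the TALL-1 list. Only 52 of the 1490 (3.49%) were above the median of that list, against 5.94% to 24.6% of line-only regions in the other lines. Several summits were found in 53 of them (3.56%), and in 26.8% of the TALL-1 intervals at regions shared by all 6.

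TALL-1-lacked regions were stronger in the lines that had them. The median pileup at them was 21.5 in MOLT-4, 25 in both KOPT-K1 and HBP-ALL, 25.5 in DND-41 and 26 in CCRF-CEM. At regions shared by all 6 lines the same lists had medians of 36 in MOLT-4 and KOPT-K1, 39 in HBP-ALL, 40 in DND-41 and 31 in CCRF-CEM. In CCRF-CEM the TALL-1-lacked regions stood at a median percentile of 63.2. In the other 4 lists they stood at 48.2 to 52.0, near the middle. The rule itself requires a peak in all 5 lists. The lowest percentile that a region reached over the 5 lists had a median of 24.9, so many were weak in at least 1 list. Median interval widths were 480 to 495 bp in the 5 lists, against 600 to 709 bp at the shared regions. The merged regions were 714 bp wide at the median, the widest of the 6 lines (623 to 702 bp elsewhere).

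More of the regions that TALL-1 lacked were strong in every other line than was the case for any other line. At 117 of its 630 lacked regions (18.6%), each of the 5 other lists had a peak above its own median −log10 p. The corresponding counts were 24 of 221 for DND-41 (10.9%), 77 of 971 for CCRF-CEM (7.93%), 22 of 296 for HBP-ALL (7.43%), 13 of 225 for MOLT-4 (5.78%) and 13 of 277 for KOPT-K1 (4.69%). Above the 75th percentile in every other list were 38 of the 630 regions lacked by TALL-1. The counts were 11 of 971 for CCRF-CEM, 8 of 221 for DND-41 and 2 to 5 for the rest. Above the 90th percentile were 6 of 630 for TALL-1 and 2 of 221 for DND-41, which are similar shares, and at most 1 for any other line.

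**Figure D2:**
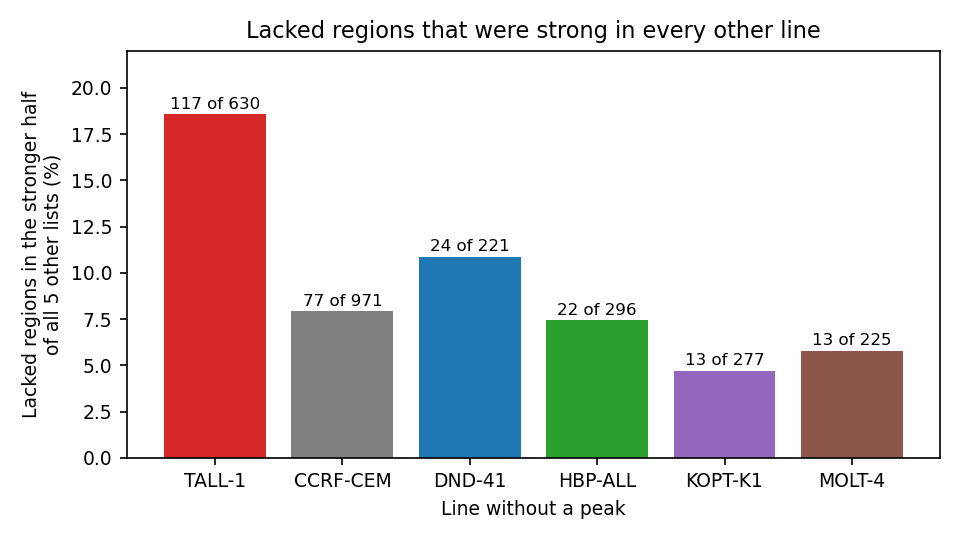
Share of the regions lacked by each line alone at which all 5 other lists had a peak above their own median −log10 p, in percent, with counts above the bars. TALL-1 stands at 18.6% (117 of 630) and the other lines between 4.69% and 10.9%.

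The rule turns on an overlap of 1 bp and on the authors' calling threshold. The TALL-1-only region closest to a peak of another line was 5 bp away from it, and 78 of the 1490 had such a peak within 500 bp. Just outside the rule, 4 of the 1214 regions that TALL-1 shared with exactly 1 line rested on an overlap of at most 10 bp, the smallest being 2 bp. The weakest TALL-1-only peak had a −log10 p of 5.004, and 282 (18.9%) were below 6. Of the TALL-1-lacked regions 7 had a TALL-1 peak within 500 bp, the nearest 52 bp away, and the median distance to the next TALL-1 peak was 53631 bp.

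The strongest TALL-1-only regions were chosen by the authors' −log10 p. The first, at 52986 to 53398 on chromosome 4 (hg19, 1-based, as for all positions here), had a pileup of 265 on a local background of 56.6 tags, far above the TALL-1-only median background of 2.03, and lay 565 bp from a region shared by all 6 lines. The second was 698 bp wide, on chromosome 6 at 10404178 to 10404875, with 67 tags, a background of 5.25 and a fold of 10.9 over it. Its nearest peak of any other line was 7522 bp away and its nearest shared region 289718 bp away. These were the only TALL-1-only regions among the strongest 10% of the TALL-1 list.

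A pair of strong TALL-1-only regions lay on chromosome 19 some distance apart. One, at 37742355 to 37742894, had 52 tags and the highest fold of the 12 strongest, 11.5. The other, at 37288066 to 37288633, had 36 tags and a fold of 9.95. Both lay near common open chromatin, 33003 and 23847 bp from a shared region, with no other line's peak nearer.

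Chromosome 21 held 3 of the 12 strongest. They were at 32886940 to 32887537 with 48 tags, at 33541178 to 33541962 with 41 tags and at 38078530 to 38079092 with 46 tags. At the shared region nearest to each, TALL-1 pileups were also high, at 1.07, 1.36 and 1.36 on the log2 scale relative to the mean of the 6 lines. Those pileups are at other regions than the members, but they come from the same library.

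The other 5 of the 12 were scattered. One on chromosome 9 at 140210577 to 140211323 had 60 tags on a background of 8.78, and one on chromosome 20 at 56293569 to 56294000 had 44 tags. Another on chromosome 8 at 110231603 to 110232084 had 35 tags and a fold of 10.3 although TALL-1 stood at −0.69 at the nearest shared region. The last were isolated: the region on chromosome 18 at 52988911 to 52989997, the widest of the 12 at 1087 bp with 3 summits and 38 tags, lay 1103940 bp from a shared region, and that on chromosome 4 at 188426576 to 188427324, also with 38 tags, lay 1313210 bp from one.

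The strongest TALL-1-lacked regions were ranked by the lowest percentile they reached in any of the 5 other lists. At the first, on chromosome 3 at 190231263 to 190232811, the pileups were 91 in MOLT-4, 121 in KOPT-K1, 145 in HBP-ALL, 190 in DND-41 and 277 in CCRF-CEM. This 1549 bp region had 99.4 as its lowest percentile in the 5 lists, and the nearest TALL-1 peak was 1188220 bp away. The second, on chromosome 5 at 108084080 to 108085118, had 89, 139, 146, 172 and 179 tags in the same order of lines. Here a TALL-1 peak, at a region shared by all 6, was only 19296 bp away.

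Next, on chromosome 4 at 122791041 to 122792007, the pileups were between 71 tags in HBP-ALL and 107 in CCRF-CEM, the smallest spread among the first 6. The fourth lay on chromosome 3 at 98620002 to 98621106, with 74 tags in MOLT-4 and 167 in CCRF-CEM. The nearest TALL-1 peak was 307108 bp from it. The fifth, on chromosome 6 at 132833772 to 132834581, had 52 tags in MOLT-4 and 135 in CCRF-CEM, and the sixth, on chromosome 11 at 101785451 to 101786229, had 51 in MOLT-4 and 130 in DND-41.

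The next 6 had lowest percentiles from 87.8 to 89.9. On chromosome 14 at 89258619 to 89259595 the 5 lines were nearly level, with 60 to 71 tags. The region on chromosome 2 at 187454419 to 187455293 was uneven, with 217 tags in CCRF-CEM and 61 to 75 in the others. The rest were on chromosome 5 at 141303085 to 141303801 (46 to 84 tags), chromosome 8 at 17013270 to 17014811 (61 to 101), chromosome 9 at 84304020 to 84304998 (60 to 126) and chromosome 7 at 90893205 to 90894738 (59 to 173). MOLT-4 was the line with the lowest percentile at 8 of the 12, and in each the distance to the next TALL-1 peak was between 19296 and 1188220 bp.

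**Figure D3:**
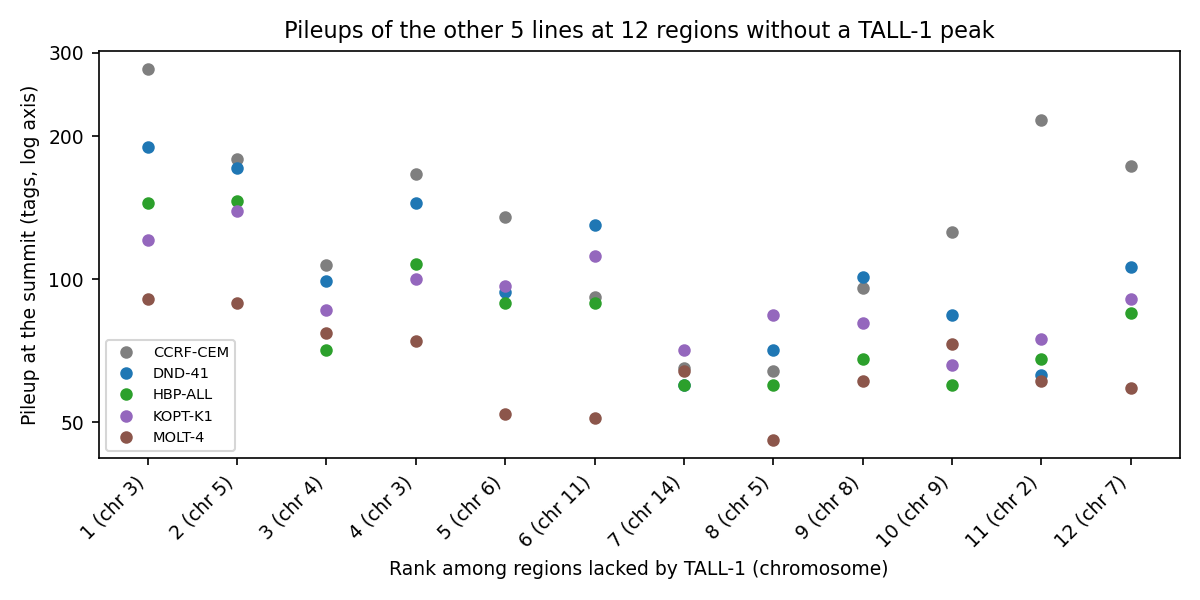
Pileup at the summit, in tags on a log axis, in the 5 lines other than TALL-1 at the 12 strongest regions without a TALL-1 peak, by rank and chromosome. At the first region the 5 lines had 91 to 277 tags; pileups are not scaled for the depth of the lists.

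By chromosome, TALL-1-only regions made up the highest share of TALL-1 regions on chromosome 21, although it held only 5.50% of all TALL-1-only regions. There they numbered 82 of 282 TALL-1 regions, 29.1% (exact binomial 95% interval 23.8% to 34.8%, counting error only). On this chromosome the other lines had line-only shares of 3.01% (KOPT-K1), 13.4% (DND-41), 16.1% (MOLT-4), 19.9% (CCRF-CEM) and 22.4% (HBP-ALL). In DND-41 and MOLT-4, too, the line-only share was higher on chromosome 21 than on any other chromosome. It was the only chromosome on which TALL-1 had the highest line-only share of the 6. TALL-1 lacked just 1 of 91 candidate regions there (1.10%), as did MOLT-4.

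Chromosome 13 had the next highest share, 108 of 511 or 21.1%, followed by chromosome 20 with 15.1%, chromosome 14 with 14.0% and chromosome 10 with 13.8%. The lowest were chromosome 12 with 4.72%, chromosome 9 with 4.82% and chromosome 2 with 5.06%. On chromosomes 2, 3, 4, 5, 9, 12 and X TALL-1 had the lowest line-only share of all 6 lines. On chromosomes 2, 3, 4, 5, 9 and 13 it had the highest lacked share, and on chromosome 8 it tied with CCRF-CEM for the highest, at 8.10%.

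Chromosome 2 held the most TALL-1-lacked regions, 83 of 759 candidates or 10.9%. The other lines lacked 1.74% to 8.15% there. Chromosome 13 was unusual in standing high on both counts. Beside its many TALL-1-only regions, TALL-1 lacked 22 of 222 candidates there (9.91%, interval 6.32% to 14.6%), against 1.96% to 7.83% in the other lines.

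**Figure D4:**
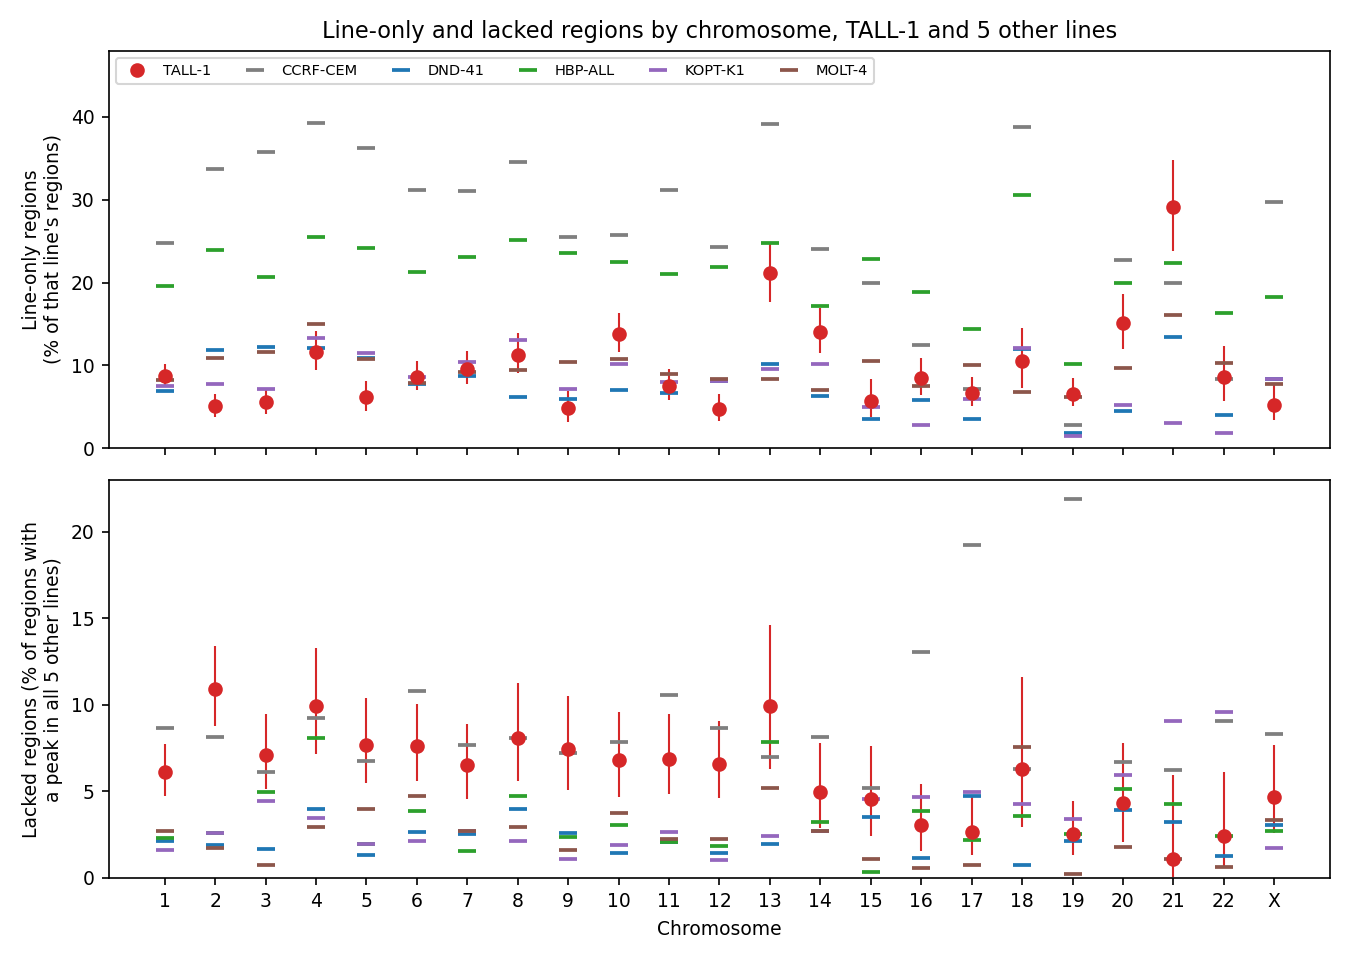
Line-only regions as a percentage of each line's regions (top) and lacked regions as a percentage of regions with a peak in all 5 other lines (bottom), by chromosome. Red points are TALL-1 with exact binomial 95% intervals (counting error only) and dashes are the other lines; TALL-1 reaches 29.1% line-only on chromosome 21 and 10.9% lacked on chromosome 2.

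The share of members moved with peak heights at the shared regions of the same chromosome. Relative pileup is the log2 of TALL-1 tags minus the 6-line mean of the same log2 values, with the TALL-1 median over 9045 shared regions set to 0. It was 1.06 on chromosome 21, 0.55 on chromosome 20 and 0.44 on chromosome 13. On chromosome 2 it was −0.33 and on chromosome 3 −0.30. Across the 23 chromosomes its median had a Spearman rho of 0.62 with the TALL-1-only share and of −0.68 with the lacked share. Without chromosome 21 these were 0.56 and −0.63. All points come from the same 6 libraries, so this is a description. In the other lines rho ran from −0.35 (HBP-ALL) to 0.90 (CCRF-CEM) for line-only regions and from −0.85 (MOLT-4) to −0.43 (CCRF-CEM) for lacked ones, so the relation to the lacked share had the same sign in all 6.

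At single members only medians were taken, which cannot be ranked against the rho across chromosomes. At the shared region nearest to a TALL-1-only region, the median TALL-1 relative pileup was 0.08 and 57.0% of values were above 0; without chromosome 21 the median was 0.06. It was 0.19 for the 167 regions with a shared neighbour within 10 kb and −0.03 for the 633 with none within 100 kb. Nearest to TALL-1-lacked regions the median was −0.20, with 31.6% above 0. The other lines had medians from −0.21 to −0.07 nearest to their own lacked regions, and the TALL-1 value lay within that range. Nearest to their own line-only regions their medians ran from −0.03 (HBP-ALL) to 0.43 (CCRF-CEM), a range that also held the TALL-1 value.

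Along chromosome 21 the TALL-1-only share was lower towards the far end. In 5 Mb windows it was 44.2% (23 of 52 TALL-1 regions) from 15000001 to 20000000, 32.4% (11 of 34) from 25000001, 29.0% (18 of 62) from 30000001, 10 of 50 from 35000001, 10.8% (4 of 37) from 40000001 and 4.76% (1 of 21) from 45000001. The 3 remaining windows had only 5 to 13 TALL-1 regions each, and higher shares. These were 60% (3 of 5) from 5000001, 53.8% (7 of 13) from 10000001 and 62.5% (5 of 8) from 20000001. Relative pileup did not follow the same course. It was 0.75 in the windows from 15000001 and 25000001, 1.22 and 1.28 in those from 30000001 and 35000001, 0.87 in that from 40000001, and −0.29 in the last. The value of 0.80 from 5000001 rested on only 2 shared regions, and that of −0.06 from 20000001 on 1. The first windows had few shared regions (9 from 15000001 to 20000000), against 24 from 30000001.

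On chromosome 13 the balance of the 2 kinds of member differed between windows, but each window with lacked regions also held TALL-1-only ones. From 25000001 to 35000000 the windows held 12 and 15 TALL-1-only regions (30.8% and 32.6% of TALL-1 regions) and 1 lacked region each, with relative pileups of 0.77 and 0.59. From 80000001 to 85000000 TALL-1 lacked 4 of 6 candidates, and 2 of its 10 regions there (20%) were TALL-1-only. The relative pileup in that window was −0.80, over the few shared regions left. Towards the end, from 110000001 to 115000000, both kinds occurred together, with 10 TALL-1-only regions (21.3%) and 4 lacked of 20 candidates. On chromosome 20 the TALL-1-only regions were spread over 12 of 13 windows, with relative pileups from 0.27 to 0.89.

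**Figure D5:**
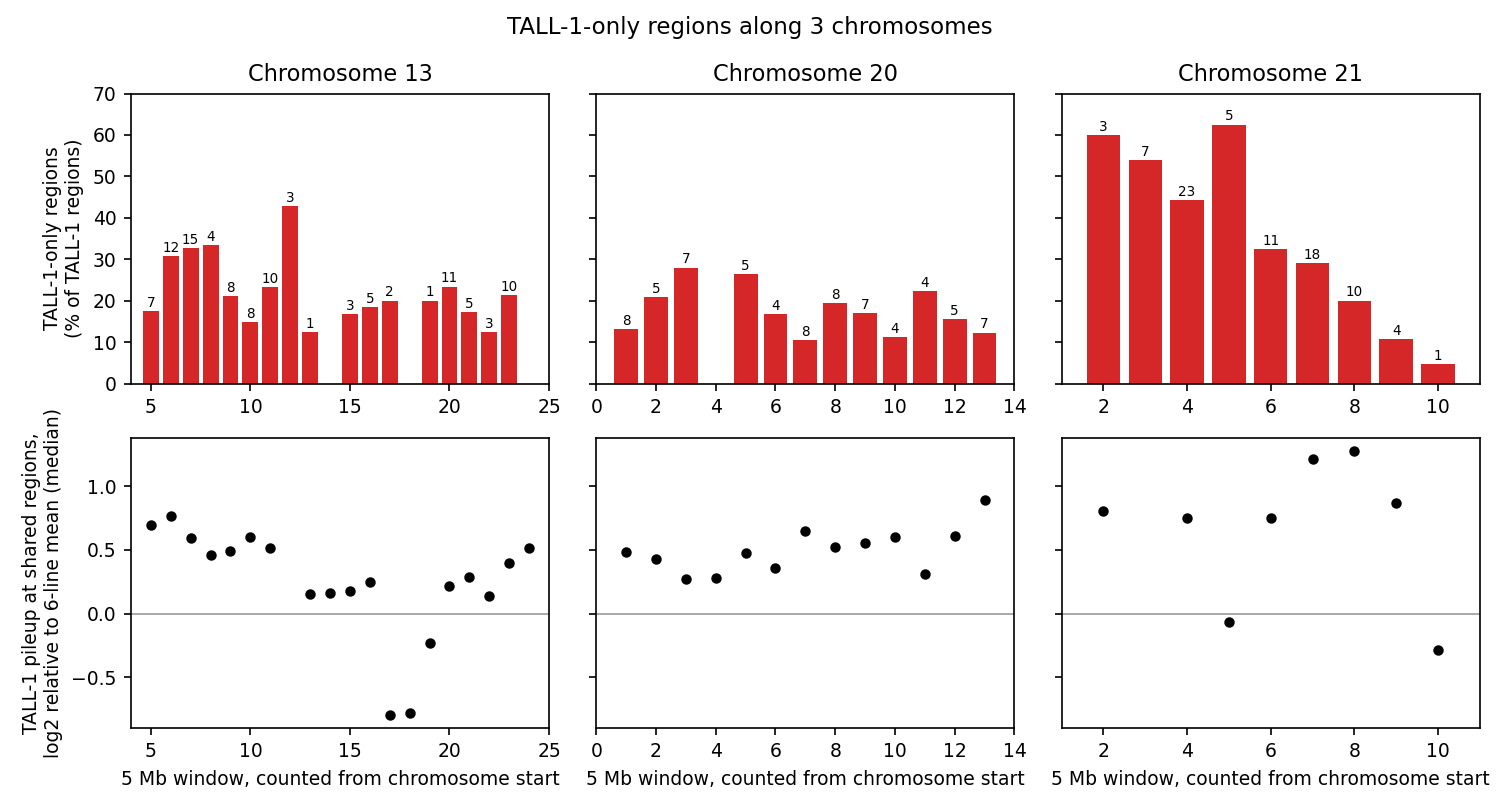
TALL-1-only regions as a percentage of TALL-1 regions (top, counts above the bars) and median TALL-1 pileup at regions shared by all 6 lines as log2 relative to their mean (bottom), in 5 Mb windows along chromosomes 13, 20 and 21. On chromosome 21 the share was lowest, at 4.76%, in the last window, where the relative pileup was −0.29.

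Windows with many TALL-1-only regions were not always windows of high TALL-1 pileup. Among 34 windows with at least 8 of them, the highest share was 47.4% (9 of 19) on chromosome 10 from 130000001 to 135000000, with a relative pileup of 0.41. On chromosome 8 the window from 115000001 to 120000000 had 32.0% (8 of 25) at a relative pileup of −0.57. On chromosome 7 that from 140000001 to 145000000 had 24.4% (10 of 41) at −0.32.

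Among 26 windows with at least 4 TALL-1-lacked regions, the highest share was 4 of 5 candidates on chromosome 2 from 155000001 to 160000000. It was followed by the window on chromosome 13 described above and by 4 of 7 on chromosome 15 from 95000001 to 100000000. A further window on chromosome 2, from 180000001 to 185000000, came next with 6 of 13 candidates. The largest number in 1 window was 10, on chromosome 6 from 25000001 to 30000000, but there they were 16.7% of 60 candidates and TALL-1 had 97 peak regions. Relative pileup was negative, from −0.20 to −0.80, in the 10 windows listed first by lacked share. At the top of this list most candidates were lacked, so both ends of that range rest on very few shared regions. The last of the 10 windows, on chromosome 2 from 5000001 (4 of 16 candidates), tied with a window on chromosome 11. That window, from 10000001, also had 4 of 16, and its relative pileup was 0.31.

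Most members stood alone. Chained at gaps of at most 100 kb, the 1490 TALL-1-only regions formed 1113 singles, 121 pairs, 23 groups of 3, 10 of 4, 4 of 5 and 1 of 6. Another TALL-1-only region lay within 100 kb for 25.3% of them. DND-41 and KOPT-K1, with similar numbers of line-only regions, had 27.2% and 26.3%, close to the TALL-1 value. The 630 TALL-1-lacked regions formed 542 singles, 41 pairs and 2 groups of 3.

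The group of 6 lay on chromosome 7 between 142132029 and 142256118. This stretch held 19 merged regions, none shared by all 6 lines; TALL-1 had peaks in 11 of them, MOLT-4 in 8, KOPT-K1 and DND-41 in 7 each, HBP-ALL in 6 and CCRF-CEM in 0. The 6 TALL-1-only peaks were modest, with 11 to 31 tags.

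The 4 groups of 5 differed in their surroundings. On chromosome 14, between 23981441 and 24080050, TALL-1 had peaks in all 8 regions, of which 2 were shared by all lines, and its line-only peaks reached 39 tags. On chromosome 19, between 12750886 and 12949493, it had peaks in 16 of 17 regions, against 3 in CCRF-CEM and 8 or 9 in the other lines. On chromosome 13, between 26273541 and 26457425, and on chromosome 21, between 15147617 and 15335816, TALL-1 had 6 peak regions each, none shared by all lines. The group on chromosome 21 lay 753114 bp from the longest stretch without regions on that chromosome. Relative pileup at shared regions within 500 kb of these 4 groups was 0.42 to 0.68, taken over 2 to 13 regions, and at the group on chromosome 7 it was −0.05 over 3.

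The groups of 3 TALL-1-lacked regions lay on chromosome 12 between 104891448 and 105038471, and on chromosome 2 between 157190490 and 157257986. TALL-1 had no peak in either. On chromosome 12 the 3 lacked regions were the only ones, with 11 to 45 tags in the other lines. On chromosome 2 they had 20 to 91 tags, and CCRF-CEM and DND-41 had a further peak each.

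At the edges of chromosomes the 2 kinds of member differed. Within 1 Mb of the first or last region of a chromosome lay 57 TALL-1-only regions (3.83%). This was close to the 3.78% of all TALL-1 regions and above the 2.83% of all merged regions. Line-only regions of the other lines had 1.26% to 3.54%. Of the TALL-1-lacked regions 12 lay there (1.90%), against 3.92% of the regions shared by all 6. Within 1 Mb of the longest stretch without regions lay 39 TALL-1-only regions (2.62%), against 1.51% of all TALL-1 regions and 0.868% to 1.42% of line-only regions elsewhere. A local background above 10 tags was found at 19 TALL-1-only regions (1.28%), against 5.74% of the TALL-1 peaks at regions shared by all 6.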

How the data were processed

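ATAC-seq libraries of 6 lines, 1 each, were sequenced with paired ends (Illumina NovaSeq), per the labels. Per the submitters' processing notes, Bowtie2, Picard, SAMtools and MACS2 2.1.1.2016030 were used with build hg19; step order, settings and whether reads were shifted for Tn5 were not given in the sources used here. The authors deposited 1 peak list per library, without a header, read as narrowPeak: a score, a fold enrichment (ratio) over local background, −log10 p-value and −log10 q-value columns, and the summit offset. Read totals behind the lists are unknown.

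Lines sharing an interval were joined, keeping the strongest summit. Percentiles are ranks of −log10 p within a list. Pileups were recovered from the deposited fold and −log10 p as whole tags t over background c, with fold (t + 1) / (c + 1) and a Poisson p-value of more than t tags, within 0.001; 99.96% to 99.99% of intervals matched. For relative depth, a list's lowest background was divided by its narrowest interval. Intervals are exact binomial or order-statistic 95% intervals and cover counting error or spread between regions only. The named regions are the 12 strongest of each kind and the groups with the most members, up to 5 of each kind; because 41 pairs of lacked regions tied, only the groups of 3 are named.

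Members, lists and alternatives were chosen with earlier results of these data known. Pileup recovery, merging, distances and chaining were tested on simulated data. Lines of chromosome Y, mitochondria and other contigs were left out, and no gene or sequence was assigned, since the reference tables are of another build. Software was matplotlib 3.10.9, scipy 1.17.1, pandas 2.3.3 and numpy 2.4.6 under Python 3.11.15.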

Additional observations from a re-analysis of the deposited data

How the results depend on the processing

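No paired analysis was possible because each line had 1 library. Each of 10 results was recomputed under 11 alternatives (10 for the share on chromosome 21), and an 11th, the share of lacked regions above the median of all other lists, was added after seeing the data. Of the 120 values 97 stayed within the result's own interval or, for counts, within 1.5 times, and 23 moved out of it. With −log10 p of at least 10 in every list, TALL-1-only regions numbered 919, with a median width of 354 bp and a median distance to shared regions of 86054 bp; lacked regions had a width of 758 bp, a distance of 120731 bp, and 7.91% had a neighbour within 100 kb. With equal numbers of the strongest intervals, lacked regions numbered 399, with a width of 758 bp, a distance of 125995 bp, 10.0% with a neighbour and 22.1% above the median of all other lists; TALL-1-only regions were 287 bp wide and 32.0% had a neighbour. Leaving out CCRF-CEM gave lacked regions a distance of 78590 bp and a width of 675 bp. Widths of lacked regions were 660 bp without DND-41, 659 bp without HBP-ALL, 675 bp without KOPT-K1 and 660.5 bp without MOLT-4. Each of these settings merged fewer lists and also changed which regions were members. The share of TALL-1-only regions with a neighbour was 30.4% without HBP-ALL, 27.6% without KOPT-K1 and 29.6% without MOLT-4, and the distance was 68060 bp without MOLT-4. The cause of these changes was not tested.

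The order of lines was recomputed with all 6 lists and without CCRF-CEM. TALL-1-only regions stayed the nearest to shared regions and TALL-1-lacked ones the farthest in every such setting. With −log10 p of at least 10, TALL-1-only regions were no longer the narrowest, since another line had 347 bp, and lacked ones no longer the widest, with 787 bp in another line; with equal numbers the widest was 763 bp. The depth of the lists limits weak calls: a missing peak is no measurement of closed chromatin.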
